A study of Mus musculus with 18 samples.

Results

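The 9 genes described here encode receptors, feedback inhibitors and direct targets of transforming growth factor beta (TGF-β) signalling: Tgfbr1 and Tgfbr2, Smad6, Smad7, Pmepa1 and Skil, and Id1, Id2 and Id3. They were taken by symbol from a table of 24411 gene symbols, and all 9 were found. The cells were RAW264.7, a line of mouse macrophage-like cells, and poly(A) RNA was sequenced in 18 libraries that form 6 groups of 3. Control cells carried a control gRNA (guide RNA) and have the genotype WT in the labels, and knockout cells belong to a Kdm7a-deficient line made with CRISPR/Cas9. Kdm7a is a histone demethylase. M0 cells of both genotypes were left unstimulated for 48 h. M1 cells of both genotypes were given mouse IFN-γ at 2 ng/ml and LPS, a bacterial wall component, at 0.1 µg/ml. M2 cells of both genotypes were given mouse IL-13, IL-10 and IL-4, at 20 ng/ml, and human TGF-β1 at 2 ng/ml. All groups were harvested at 48 h. TGF-β1 was thus given in the M2 groups only, together with 3 other cytokines, and the parts of the 4 cytokines in any M2 change cannot be told apart. One knockout line was used, so differences between lines that do not come from Kdm7a cannot be told apart from knockout effects. The series asked how loss of Kdm7a alters the transcriptome under these conditions.

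TGF-β binds the type II receptor TGFBR2, which recruits and activates the type I receptor TGFBR1. The type I receptor phosphorylates SMAD2 and SMAD3, and in many cells also SMAD1 and SMAD5, which enter the nucleus with SMAD4 and act on target genes. Among the targets are genes that restrain the pathway: SMAD7 and SMAD6 block the receptors, PMEPA1 keeps SMAD2 and SMAD3 from the receptor, and SnoN, the product of Skil, represses SMAD-driven transcription. The ID proteins lack a DNA-binding region and hold E proteins, a class of helix-loop-helix transcription factors, away from DNA. In macrophages TGF-β is known as a dampener of inflammatory activation.

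Values are TPM, a transcript's share of its library scaled to a fixed total and corrected for transcript length. Depth is not kept in this unit and is unknown here, so no counting error is given. None of the 153 pairs of libraries held identical columns, and across genes libraries of the same group correlated at 0.994 to 0.997. Of 12 macrophage marker genes, 10 or 11 were at 1 TPM or more in all 3 libraries of every group. Mertk was at or near 0 in all groups, and mean Mrc1 was below 1 TPM outside M2. The summed level was lowest under M2 and highest under M1, and in each condition lower in knockout than in control cells, without overlap. It was 6429 to 6580 TPM in control and 5408 to 5502 TPM in knockout cells without stimulation. Under M1 it was 7546 to 7665 and 6942 to 7102 TPM, and under M2 4830 to 4989 and 4091 to 4299 TPM. Single markers moved in opposite ways: in control cells under M1 Lyz2 fell from 3631 to 1255 TPM and Cd14 rose from 596 to 2565 TPM. None of 8 fibroblast and none of 6 epithelial markers reached 1 TPM in all 3 libraries of any group, with summed levels of at most 5.11 TPM in a knockout M1 library and 1.20 TPM in a knockout M2 library. Of 8 lymphocyte markers 1 did, Cd79a. The sum of that list was 13.1 to 14.9 TPM in control and 19.65 to 21.3 TPM in knockout M2 libraries. In the other groups it was 1.78 to 3.08 TPM, and Cd3e and Ms4a1 were at or near 0. The part of these shifts in the results was not tested. In bulk RNA, fewer cells of a kind and less RNA per cell cannot be told apart. Kdm7a itself checked the labels: every knockout library was lower than every control library of its condition, by 1.47, 1.85 and 1.65 on the log2 scale without stimulation, under M1 and under M2. Nothing in the labels states that a group's 3 libraries were grown separately, and p-values may then reflect technical spread alone.

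Log2 changes are differences of mean log2(TPM + 1), which understates the change of low genes, and a gene was called at a limma adjusted p below 0.05 over the 11548 genes that reached 1 TPM in 3 or more libraries. TPM are shares, so a rise of some genes lowers the rest. TMM factors, which rescale libraries by a trimmed mean, moved the median log2 change of all tested genes by 0.46 in the M1 response of control cells and by 0.51 in that of knockout cells, and by -0.42 and -0.45 in M2 against M1. All 9 genes passed the filter. Smad6 and Pmepa1 reached 1 TPM in all 3 libraries of a group only under M2. Pmepa1 reached it in the 6 M2 libraries alone, so it could pass the filter only by being high there. Smad6 reached it in 9 libraries, the M2 ones and some unstimulated ones. Counts over the 9 genes are therefore descriptions.

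Under M2 conditions 8 of the 9 genes rose in control cells, all but Tgfbr2, which fell. Of all tested genes 28.4% were called higher and 37.0% lower in this comparison, and the median log2 change was 1.82 over the 9 genes against -0.05 over all tested genes. Knockout cells showed the same count of rises, 8 of 9, with none lower and Tgfbr2 not called, where 29.6% of tested genes were called higher and 43.2% lower (medians 1.78 and -0.09). In that comparison 40.7% of all calls were higher as deposited and 50.8% with TMM factors. Under M1 conditions the 9 genes split: in control cells 5 rose and 4 fell, beside 32.2% and 56.9% of tested genes, with medians of 0.37 and -0.38. In knockout cells 4 rose, 2 fell and 3 were not called, beside 32.0% and 58.4% of tested genes, with medians of 0.06 and -0.43. The split of M1 calls depended on the scaling. Higher genes made up 36.1% of calls in control cells as deposited and 53.2% with TMM factors, and 35.4% and 52.8% in knockout cells. With TMM factors 7 of the 9 genes were higher and 2 lower under M1 in control cells, and 6 higher and 2 lower in knockout cells. M1 and M2 responses of a genotype share their unstimulated libraries.

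**Figure D1:**
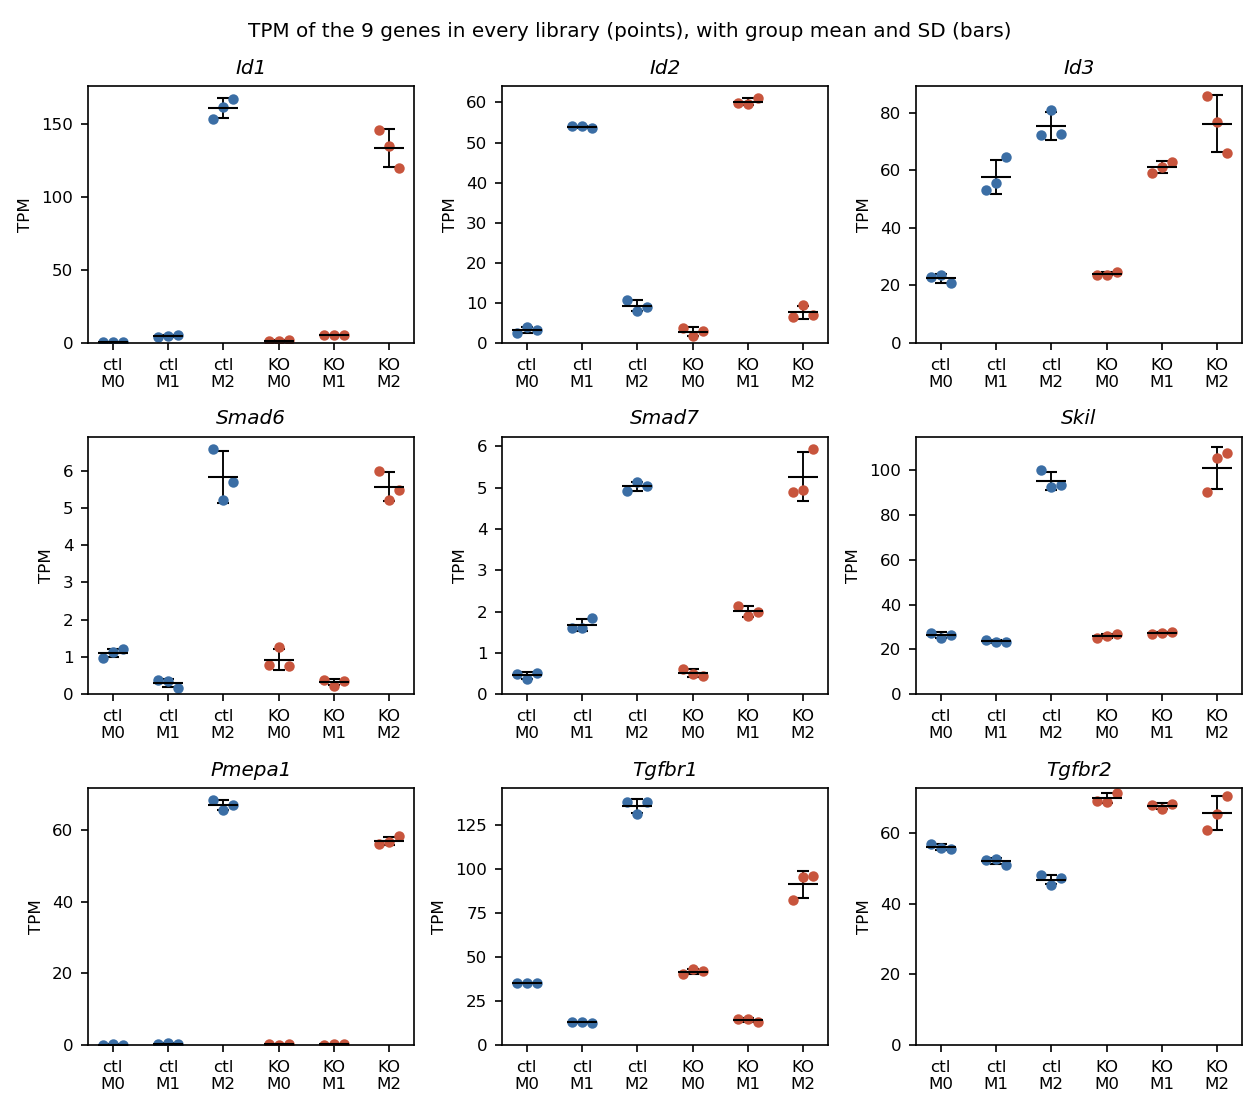
TPM (y axis, linear, from 0) of each of the 9 genes in the 18 libraries (points), with the mean and SD of each group of 3 (bars). Groups on the x axis are control (ctl, blue) and knockout (KO, red) cells, unstimulated (M0) or under M1 or M2 conditions. Id1 and Pmepa1 were high only in the M2 groups, Id2 was highest in the M1 groups, and Tgfbr2 was higher in knockout than in control cells in each condition.

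Tgfbr1, the type I receptor gene, lies on the plus strand of chromosome 4 at 47353222 to 47414926 of the GRCm38 build. In control cells it stood at 35.0, 35.4 and 35.1 TPM without stimulation, at 13.1, 13.0 and 12.4 TPM under M1, and at 138, 131 and 138 TPM under M2. The 3 groups did not overlap and lay in the order M1, unstimulated, M2. Tgfbr1 fell by 1.39 ± 0.055 (SE) on the log2 scale under M1 (limma adjusted p = 1.73e-15) and rose by 1.92 ± 0.055 under M2 (limma adjusted p = 9.83e-17). Knockout libraries followed the same order over a narrower span, with 40.02, 43.2 and 41.8 TPM unstimulated, 14.9, 14.7 and 13.2 TPM under M1, and 82.5, 95.0 and 95.9 TPM under M2. Their log2 changes were -1.48 under M1 and 1.11 under M2 (limma adjusted p = 4.98e-16 and 5.03e-13). M2 stood above M1 by 3.30 in control and 2.59 in knockout cells on the log2 scale.

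Tgfbr2, the type II receptor gene that binds the ligand, lies on the minus strand of chromosome 9 at 116087695 to 116175363. Its levels spanned a narrow range. Control libraries held 56.9, 55.7 and 55.4 TPM unstimulated, 52.4, 52.5 and 50.9 TPM under M1, and 48.0, 45.3 and 47.2 TPM under M2. No 2 of these groups overlapped, and M2 was lowest. The fall under M2 was -0.25 ± 0.043 on the log2 scale (limma adjusted p = 3.42e-05). Under M1 the change was -0.11 (limma adjusted p = 0.0259), a call that was lost without control M0 library 1 (limma adjusted p = 0.0758) or control M1 library 3 (limma adjusted p = 0.0833), and with TMM factors the change was 0.44. In knockout cells Tgfbr2 held 69.1, 68.8 and 71.4 TPM unstimulated, 67.8, 66.7 and 68.3 TPM under M1, and 60.8, 65.4 and 70.5 TPM under M2. Here the M2 libraries overlapped both other groups, and neither response was called (log2 changes of -0.04 and -0.09, limma adjusted p = 0.337 and 0.0654). Without knockout M2 library 3 the M2 change was -0.14 and called (limma adjusted p = 0.00360). With TMM factors the M1 change of knockout cells was 0.56. The type II receptor gene therefore stood above the type I gene in all M0 and M1 libraries and below it in all M2 libraries.

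The ratio of Tgfbr1 to Tgfbr2 within a library does not depend on how libraries are scaled. In control cells it was 0.628 ± 0.012 (SD, n = 3) unstimulated, 0.247 ± 0.0030 under M1 and 2.89 ± 0.026 under M2. In knockout cells it was 0.597 ± 0.026, 0.211 ± 0.015 and 1.39 ± 0.055. The M2 ratios of 2.87 to 2.92 in control and 1.36 to 1.45 in knockout libraries lay far apart, the M1 ratios of 0.244 to 0.250 and 0.193 to 0.221 did not overlap, and the unstimulated ones, 0.615 to 0.636 and 0.579 to 0.628, did. An exact permutation test of 3 against 3 libraries cannot go below p = 0.10, so none is given.

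The promoters of both receptor genes are shown because the genes share a pathway and moved apart under M2 in control cells. They come from RefSeq (GRCm38.p6), which had windows of 250 bases before to 50 bases after the start for Id2, Id3, Smad6, Tgfbr1 and Tgfbr2, 6 windows for 5 of the 9 genes. Each window was searched on both strands for GTCTAGAC, the palindromic SMAD-binding element, for the shorter CAGAC that SMAD3 and SMAD4 bind, and for GGCGCC, a GC-rich element bound by SMAD proteins. No motif overlaps another as spelled. Of 32851 windows of the same length, 0.213% held GTCTAGAC, 49.6% CAGAC and 11.9% GGCGCC. The sequences run 5′ to 3′ along the gene's strand, with motif letters in capitals. The Tgfbr1 stretch is chr4:47352972-47353221, plus strand, bases -250 to -1 from the start, with GGCGCC at -233. The Tgfbr2 stretch is chr9:116175368-116175613, minus strand, bases -250 to -5, with CAGAC at -160. A further Tgfbr1 start had CAGAC at -203. These are matches of letters, not sites of binding.
Tgfbr1: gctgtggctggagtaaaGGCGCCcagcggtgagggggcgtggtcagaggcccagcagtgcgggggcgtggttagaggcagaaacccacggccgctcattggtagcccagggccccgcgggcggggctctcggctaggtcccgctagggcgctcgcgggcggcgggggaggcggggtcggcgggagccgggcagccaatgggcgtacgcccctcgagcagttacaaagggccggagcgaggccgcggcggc
Tgfbr2: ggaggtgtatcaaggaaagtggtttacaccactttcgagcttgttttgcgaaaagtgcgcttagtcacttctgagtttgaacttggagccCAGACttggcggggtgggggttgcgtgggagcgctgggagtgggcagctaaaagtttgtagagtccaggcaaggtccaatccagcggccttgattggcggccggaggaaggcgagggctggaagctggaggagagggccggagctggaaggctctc

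**Figure D2:**
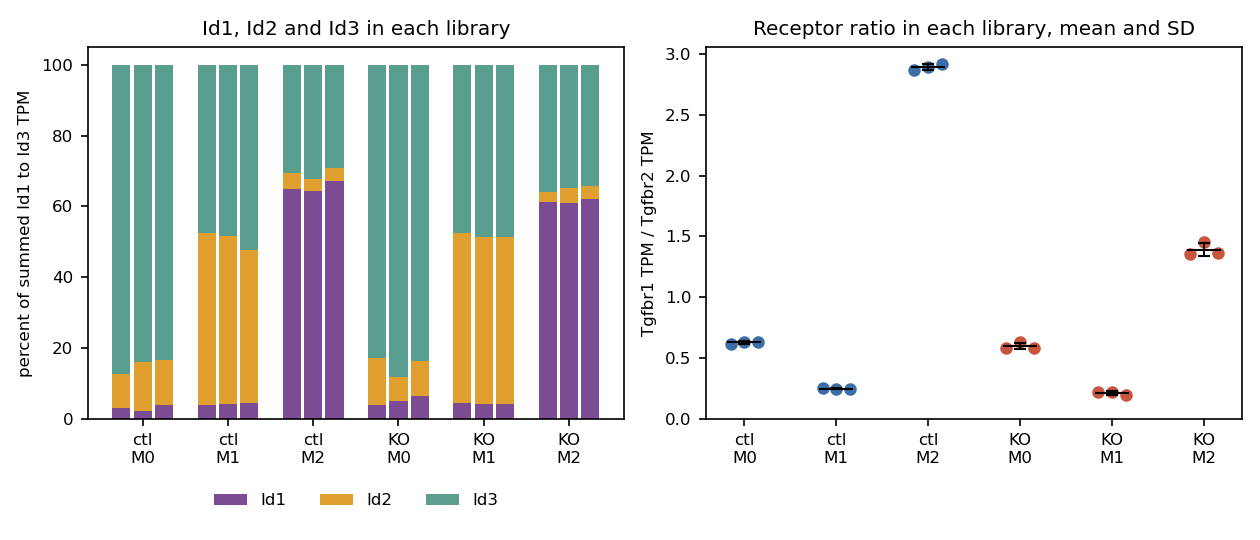
Left, percent of the summed Id1, Id2 and Id3 TPM held by each gene in the 18 libraries (stacked bars, 1 per library). Right, Tgfbr1 TPM divided by Tgfbr2 TPM in each library (points) with group mean and SD (bars), linear axis from 0; the ratio was 2.89 in control M2 and 1.39 in knockout M2 cells, and Id1 held 65.5% and 61.4% of the Id total there.

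Smad6, which encodes an inhibitory SMAD that acts mainly on the BMP branch of the pathway, lies on the minus strand of chromosome 9 at 63953076 to 64022085. It was low everywhere and highest under M2. Control libraries had 0.98, 1.13 and 1.20 TPM unstimulated, 0.37, 0.35 and 0.17 TPM under M1, and 6.58, 5.22 and 5.68 TPM under M2. Knockout libraries had 0.78, 1.25 and 0.74 TPM unstimulated, 0.37, 0.22 and 0.36 TPM under M1, and 5.98, 5.21 and 5.49 TPM under M2. The conditions did not overlap within either genotype, and the genotypes overlapped in every condition. Smad6 rose under M2 by 1.70 in control and 1.78 in knockout cells on the log2 scale, and fell by 0.70 and 0.54 under M1 (limma adjusted p = 3.87e-11 for control M2 and 4.67e-06 for control M1). Of the 6 windows searched, the Smad6 one held the palindrome GTCTAGAC, from base -4 to 4 around the start that RefSeq gives. The gene's outer end given above, 64022085, lies further upstream than the start of this window. With that end the palindrome at 64022056 to 64022063 is within the gene. It is printed because 0.213% of windows hold this element, chr9:64022046-64022073, minus strand, bases -14 to 14, with the palindrome in capitals.
Smad6: ccgccaaagtGTCTAGACtggcatatga

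Pmepa1, which encodes a membrane protein that withholds SMAD2 and SMAD3 from the receptor, lies on the minus strand of chromosome 2 at 173224458 to 173276731. Outside M2 it was near 0: 0.11, 0.16 and 0.02 TPM in unstimulated control libraries, 0.34, 0.62 and 0.31 TPM in control M1 libraries, 0.16, 0.12 and 0.30 TPM in unstimulated knockout libraries, and 0.11, 0.26 and 0.26 TPM in knockout M1 libraries. Under M2 it reached 68.4, 65.6 and 67.0 TPM in control cells, and in knockout cells 56.1, 56.8 and 58.3 TPM. Every M2 library stood far above every other library, and all 3 knockout M2 libraries stood below all 3 control ones. The M2 rise was 5.96 ± 0.088 on the log2 scale in control and 5.61 in knockout cells (limma adjusted p = 4.25e-21 for control). Pmepa1 entered the tested genes only through its M2 libraries, so this p-value describes the rise and is no separate support for it. A small rise under M1 was called in control cells, 0.37 (limma adjusted p = 6.07e-04), and not in knockout cells, 0.02 (limma adjusted p = 0.831).

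Skil, the gene of the repressor SnoN, lies on the plus strand of chromosome 3 at 31095058 to 31122923. Its values were 27.5, 25.1 and 26.4 TPM in unstimulated control libraries and 24.4, 23.4 and 23.2 TPM under M1, against 99.95, 92.5 and 93.4 TPM under M2. Knockout libraries held 25.2, 26.1 and 27.0 TPM unstimulated, 26.7, 27.4 and 27.5 TPM under M1, and 90.3, 105 and 108 TPM under M2. Unstimulated libraries of the genotypes overlapped, and every M2 library stood above every other library. The M2 rise was 1.82 ± 0.056 in control and 1.91 in knockout cells on the log2 scale (limma adjusted p = 2.92e-16 for control). Its M1 change in control cells was -0.15 (limma adjusted p = 0.0180). That call was lost without control M0 library 1 (limma adjusted p = 0.0834) or control M1 library 3 (limma adjusted p = 0.0563), and with TMM factors the change was 0.38. In knockout cells the M1 change was 0.06 (limma adjusted p = 0.324), and 0.65 with TMM factors, where it was called.

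Smad7, which encodes the inhibitory SMAD that targets the TGF-β receptors for degradation, was stepped over the conditions. Control libraries had 0.49, 0.36 and 0.52 TPM unstimulated, 1.59, 1.59 and 1.84 TPM under M1, and 4.91, 5.13 and 5.05 TPM under M2. Knockout libraries had 0.61, 0.48 and 0.44 TPM unstimulated, 2.14, 1.88 and 2.00 TPM under M1, and 4.90, 4.94 and 5.95 TPM under M2. In both genotypes the order was unstimulated, M1, M2 with no overlap, although only M2 cells were given TGF-β1. Smad7 rose under M1 by 0.88 in control and 0.99 in knockout cells, and under M2 by 2.05 in both, on the log2 scale (limma adjusted p = 6.00e-09 and 4.14e-14 in control cells). Smad6 and Smad7, the pair of inhibitory SMAD genes, thus moved the same way under M2 and in opposite ways under M1, and both M1 directions were the same with TMM factors (-0.51 for Smad6 and 1.16 for Smad7 in control cells).

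**Figure D3:**
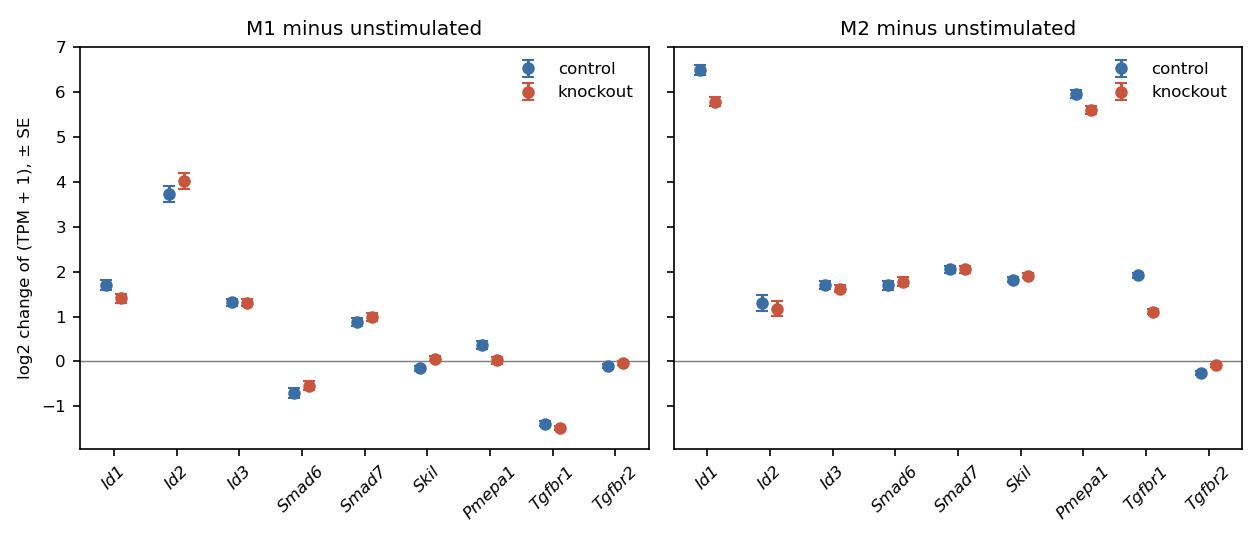
Log2 change of (TPM + 1) with its SE (y axis) for each of the 9 genes (x axis), M1 minus unstimulated on the left and M2 minus unstimulated on the right, in control (blue) and knockout (red) cells. Id1 and Pmepa1 rose by 5.61 to 6.50 under M2, while under M1 Id2 had the largest rise and Tgfbr1 the largest fall of the 9 genes.

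Id1, an inhibitor of DNA-binding gene and a direct target of SMAD proteins, lies on the plus strand of chromosome 2 at 152736251 to 152737410. Unstimulated control libraries held 0.83, 0.58 and 0.98 TPM and M1 ones 4.39, 4.75 and 5.35 TPM, against 153.4, 161 and 167 TPM under M2. Knockout libraries held 1.08, 1.33 and 1.91 TPM unstimulated, 5.50, 5.15 and 5.52 TPM under M1, and 146, 135 and 119.5 TPM under M2. The unstimulated and the M2 groups of the 2 genotypes did not overlap, in opposite directions, and the M1 groups did. Id1 rose by 6.50 ± 0.11 under M2 and by 1.70 ± 0.11 under M1 in control cells on the log2 scale (limma adjusted p = 3.88e-20 and 6.38e-12). In knockout cells it rose by 5.79 and 1.40.

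Id2 lies on the minus strand of chromosome 12 at 25093799 to 25096092 and Id3 on the plus strand of chromosome 4 at 136143822 to 136145392. Id2 was the one gene of the 9 that was highest under M1 as deposited. With TMM factors Tgfbr2 was also highest there in both genotypes, and Id3 in knockout cells was higher under M1 than under M2. Control libraries held 2.47, 3.90 and 3.21 TPM unstimulated, 54.1, 54.1 and 53.6 TPM under M1, and 10.8, 8.03 and 9.05 TPM under M2. Knockout libraries held 3.86, 1.84 and 2.91 TPM unstimulated, 59.8, 59.6 and 61.1 TPM under M1, and 6.49, 9.54 and 6.88 TPM under M2. Conditions were well apart in both genotypes. Id2 rose by 3.73 ± 0.17 under M1 and 1.30 ± 0.17 under M2 in control cells (limma adjusted p = 4.77e-12 and 8.74e-06), and by 4.02 and 1.18 in knockout cells, and M2 stood below M1 by -2.42 and -2.84, all on the log2 scale. Nos2, the inducible nitric oxide synthase gene and a marker of M1 cells, was read beside it. Each M2 library had 0.00644 to 0.147% of the mean Nos2 level of its genotype's M1 libraries, while Id2 stood at 14.9 to 20.0% of its M1 mean in control and at 10.8 to 15.8% in knockout M2 libraries. Unstimulated libraries already held 1.84 to 3.90 TPM of Id2, and the source of its level under M2 was not tested.

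Id3 had the highest unstimulated level of the Id genes, and rose under both stimuli. Its control libraries held 22.9, 23.6 and 20.8 TPM unstimulated, 53.1, 55.4 and 64.5 TPM under M1, and 72.3, 80.9 and 72.8 TPM under M2. Its knockout libraries held 23.8, 23.8 and 24.6 TPM unstimulated, 58.9, 61.2 and 63.0 TPM under M1, and 85.7, 76.9 and 66.1 TPM under M2. Id3 rose by 1.32 under M1 and 1.70 under M2 in control cells (limma adjusted p = 9.91e-12 and 1.38e-12), and by 1.31 and 1.62 in knockout cells. M2 stood above M1 by 0.38 in control and 0.31 in knockout cells. With TMM factors the control value was -0.10 and not called (limma adjusted p = 0.293). The knockout value was then -0.21 and called (limma adjusted p = 0.0376).

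The Id2 and Id3 windows are shown as short stretches around the letters found. Id2 at chr12:25096307-25096334, minus strand, bases -242 to -215, had GGCGCC at -231. Id3 at chr4:136143643-136143670 and at chr4:136143742-136143769, plus strand, bases -179 to -152 and -80 to -53, had CAGAC at -167 and its reverse complement GTCTG at -68.
Id2: caggccccctgGGCGCCcagcgcacact
Id3 (-179 to -152): tgtcctcggcgtCAGACcagcctaagga
Id3 (-80 to -53): ggacccttggcgGTCTGttttgaataag

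Within a library the make-up of the 3 Id transcripts changed with the condition, and this too does not depend on scaling. In control cells Id1, Id2 and Id3 made up 3.05 ± 0.93%, 12.04 ± 2.3% and 84.9 ± 2.2% (SD, n = 3) of their sum without stimulation. Under M1 the shares were 4.14 ± 0.20%, 46.4 ± 2.6% and 49.5 ± 2.5%, and under M2 65.5 ± 1.4%, 3.81 ± 0.69% and 30.7 ± 1.6%. The leading transcript was thus Id3 without stimulation, Id2 and Id3 about equally under M1, and Id1 under M2. The sum was 26.4 ± 1.6, 116 ± 6.3 and 245 ± 7.5 TPM. Knockout cells had nearly the same shares without stimulation (5.06, 10.1 and 84.9%) and under M1 (4.26, 47.6 and 48.2%). Under M2 their Id1 share was 61.4 ± 0.60%, with libraries at 60.9 to 62.1% against 64.4 to 67.1% in control cells, which did not overlap. Their Id3 share was 35.0 ± 0.87%.

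Between M2 and M1 cells 7 of the 9 genes were higher and 2 lower in control cells, where 59.0% of tested genes were called higher and 30.3% lower (medians 1.97 and 0.42). Higher genes made up 66.1% of those calls as deposited and 49.5% with TMM factors. In knockout cells 7 were higher and 1 lower, beside 59.9% and 30.3% of tested genes (medians 1.85 and 0.45), with a higher share of 66.4% and 49.9% of calls. With TMM factors 6 of the 9 genes were higher and 2 lower in control cells, and 6 higher and 3 lower in knockout cells. Id2 was lower in M2 in both genotypes, and Tgfbr2 in control cells (-0.15, limma adjusted p = 0.00337). In knockout cells the Tgfbr2 difference was -0.05 (limma adjusted p = 0.307), and it was called without knockout M2 library 3 (limma adjusted p = 0.0252). With TMM factors Tgfbr2 was lower in M2 in both genotypes, by -0.63 in control and -0.56 in knockout cells. The gap was largest for Pmepa1, 5.58 in control and 5.59 in knockout cells on the log2 scale, and these values did not turn with TMM factors (5.32 and 5.39).

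Knockout and control cells were compared within each condition. Tgfbr2 was higher in knockout than in control cells in all 3 conditions, by 0.31, 0.37 and 0.48 (SE 0.043) on the log2 scale without stimulation, under M1 and under M2 (limma adjusted p = 2.21e-05, 5.72e-07 and 6.45e-08). No knockout library overlapped a control library of its condition. Tgfbr1 was higher in knockout cells without stimulation, by 0.24 ± 0.055 (limma adjusted p = 0.00387), and lower under M2, by -0.57 ± 0.055 (limma adjusted p = 1.50e-07). Under M1 its difference of 0.14 was called (limma adjusted p = 0.0401) but lost the call in 8 alternatives, among them leaving out any 1 of the 3 control M1 libraries or knockout M1 library 1 or 2 (limma adjusted p = 0.0532 to 0.151 over those 5). The receptors of knockout M2 cells thus stood at 91.1 ± 7.5 TPM for Tgfbr1 and 65.5 ± 4.9 TPM for Tgfbr2, against 135 ± 3.9 and 46.8 ± 1.4 TPM in control M2 cells.

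Of the 7 other genes, Id1 was higher in unstimulated knockout cells, by 0.43 ± 0.11 on the log2 scale (limma adjusted p = 0.00629), at 1.44 ± 0.43 TPM against 0.797 ± 0.20 TPM. This call was lost when only the unstimulated groups were fitted (limma adjusted p = 0.0574). Under M1, Skil was higher in knockout cells by 0.20 (limma adjusted p = 0.00619), and Pmepa1 was lower by -0.23 (limma adjusted p = 0.0367). Pmepa1 was below 1 TPM in all 6 of those libraries, and its call was lost without control M1 library 2 (limma adjusted p = 0.228), the highest of the control M1 libraries, or without knockout M1 library 1 (limma adjusted p = 0.161), the lowest of the knockout ones, and also when only the M1 groups were fitted (limma adjusted p = 0.108). Under M2 the knockout minus control differences of Id1, -0.27 (limma adjusted p = 0.0596), and Pmepa1, -0.23 (limma adjusted p = 0.0571), were not called, although neither gene's libraries overlapped. Id1 passed without knockout M2 library 1 (limma adjusted p = 0.0359), and both passed when only the M2 groups were fitted (limma adjusted p = 0.0137 for Id1 and 0.00297 for Pmepa1). Pmepa1 also passed with no variance trend (limma adjusted p = 0.0401). Skil was not called without stimulation (-0.01, limma adjusted p = 0.936) or under M2 (0.08, limma adjusted p = 0.290). Without knockout M2 library 1 the M2 difference of Skil was 0.16 and called (limma adjusted p = 0.0130). Id2, Id3, Smad6 and Smad7 were called in none of the 3 conditions, with differences of -0.26 to 0.17. Libraries of the genotypes did not overlap for Smad7 and Id2 under M1 and for Id3 without stimulation. The M1 difference of Smad7, 0.17 (limma adjusted p = 0.106), was called with TMM factors (0.23, limma adjusted p = 0.0218) and with no variance trend (limma adjusted p = 0.0453). That of Id2, 0.16, was called when only the M1 groups were fitted (limma adjusted p = 0.00142).

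**Figure D4:**
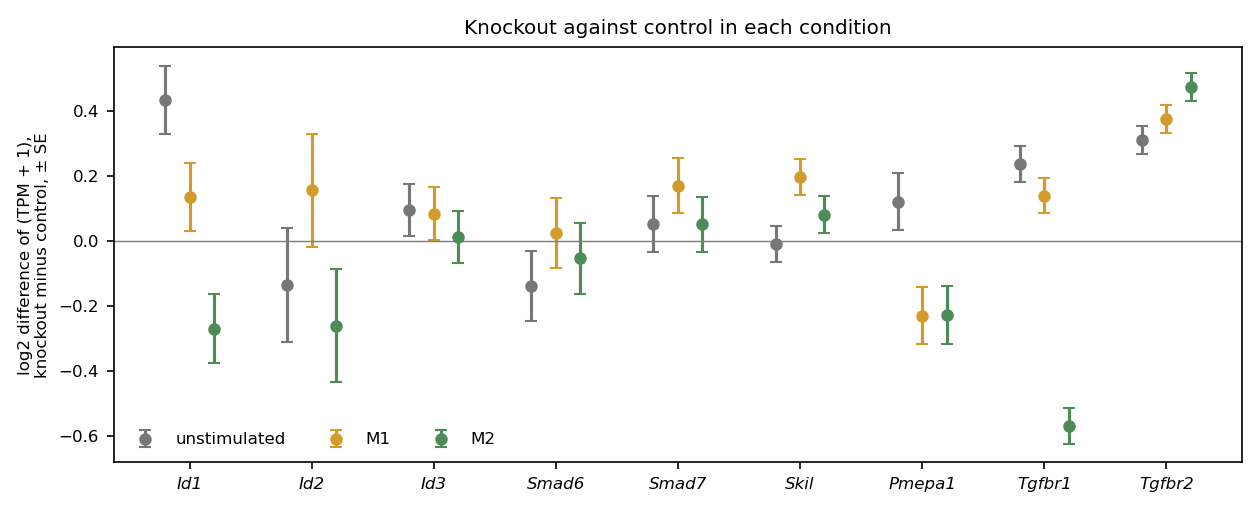
Log2 difference of (TPM + 1), knockout minus control, with its SE (y axis), for each of the 9 genes (x axis) without stimulation (grey), under M1 (orange) and under M2 (green). Tgfbr2 stood above 0 in all 3 conditions, and Tgfbr1 was at 0.24 and 0.14 without stimulation and under M1 and at -0.57 under M2.

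In counts, 3 of the 9 genes were higher and 0 lower in unstimulated knockout cells, beside 8.86% and 10.3% of tested genes. Under M1 3 were higher and 1 lower, beside 16.9% and 33.4%, and under M2 1 was higher and 1 lower, beside 12.7% and 18.3%. Higher genes made up 33.6% of all calls under M1 and 48.2% with TMM factors, and 41.0% under M2 and 55.0% with TMM factors. The median difference of the 9 genes was 0.10, 0.14 and -0.05 without stimulation, under M1 and under M2, against 0.00, -0.06 and -0.03 over all tested genes. Leaving out 1 library gave 2 to 4 called genes under M1, with 2 without control M1 library 2 or knockout M1 library 1, and 2 to 4 under M2, with 4 without knockout M2 library 1.

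Whether the genotypes responded differently to a stimulus was tested directly. For M2 it was called lower for 2 of the 9 genes and higher for 0, beside 7.05% and 7.06% of tested genes (higher genes made up 50.03% of these calls and 62.2% with TMM factors; medians -0.08 over the 9 genes and -0.03 over all). Tgfbr1 rose by 0.81 ± 0.077 less in knockout than in control cells on the log2 scale (a difference of -0.81, limma adjusted p = 5.10e-07), and Id1 differed by -0.70 ± 0.15 (limma adjusted p = 0.00333). For Id1 the difference has both ends in it: knockout libraries were higher without stimulation, at about 1 TPM where the log2(TPM + 1) scale is compressed, and lower under M2. Both calls held in every alternative run, every left-out library included. The differences of Pmepa1 (-0.35, limma adjusted p = 0.0700) and Tgfbr2 (0.16, limma adjusted p = 0.0807) were not called. Tgfbr2 was called with TMM factors (limma adjusted p = 0.0117) and without knockout M2 library 1 (limma adjusted p = 0.00650), and Pmepa1 when only the 4 groups concerned were fitted (limma adjusted p = 0.0335). Smad6, Smad7, Skil, Id2 and Id3 had differences of -0.13 to 0.09 in this response, none called.

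For M1 the difference in response was called higher for 1 gene, Skil (0.21 ± 0.079, limma adjusted p = 0.0477), and lower for 1, Pmepa1 (-0.35 ± 0.13, limma adjusted p = 0.0344), beside 12.1% and 23.9% of tested genes (higher genes made up 33.6% of these calls and 48.0% with TMM factors; medians 0.06 and -0.07). The Skil call was lost in 12 alternatives and the Pmepa1 call in 5. No call of the pair was left without control M0 library 3, control M1 library 2 or knockout M1 library 1. A single call of the pair was left without control M0 library 1, control M1 library 3, any 1 of the 3 knockout M0 libraries, or knockout M1 library 2 or 3. Without knockout M0 library 1 Id1 was called as well (-0.41, limma adjusted p = 0.0344). The receptor genes did not pass for M1 (-0.10 for Tgfbr1 and 0.06 for Tgfbr2, limma adjusted p = 0.347 and 0.450), though Tgfbr2 did with TMM factors (0.13, limma adjusted p = 0.0487).

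The rest of the pathway was read from 7 lists of other genes. Their counts in control cells stand beside 28.4% of all tested genes higher and 37.0% lower under M2, and 32.2% and 56.9% under M1. Ligands were sparse: 5 of 17 TGF-β family ligand genes passed the filter. Of these, 2 rose and 1 fell under M2 and 3 rose and 0 fell under M1 in control cells (2 and 1, and 4 and 0, with TMM factors). Tgfb1, the ligand gene with the highest level, was at 99.3 ± 0.96 TPM in unstimulated control cells and rose to 115 ± 4.5 TPM under M2 (limma adjusted p = 0.0277). Under M1 it stood at 111 ± 2.2 TPM, which was not called (limma adjusted p = 0.0749). With TMM factors its M1 rise was called (0.70, limma adjusted p = 2.10e-08). Tgfb1 in M2 against M1 control cells was 0.06 on the log2 scale as deposited and not called, and -0.43 with TMM factors, called lower. Of 11 genes for keeping or releasing latent TGF-β, 4 were tested, and 2 rose and 1 fell under each stimulus in control cells. Furin, the protease that cleaves the TGF-β precursor, rose from 22.4 ± 2.3 to 384 ± 5.1 TPM under M2 and to 289.5 ± 1.4 TPM under M1. The integrin gene Itgav rose from 15.01 to 73.1 TPM under M2 and 64.2 TPM under M1. Nrros, whose product anchors latent TGF-β1 on myeloid cells, fell from 114 to 98.9 TPM under M2 and 34.5 TPM under M1.

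Among 9 tested genes of other receptors and co-receptors, 6 rose and 3 fell under M2 and 6 rose and 1 fell under M1 in control cells (6 and 2, and 7 and 1, with TMM factors). Acvrl1, the type I receptor gene ALK1, rose from 7.48 ± 0.52 to 18.9 ± 0.85 TPM under M2 and to 82.6 ± 0.80 TPM under M1, and so moved with Tgfbr1 under M2 and against it under M1. Acvr1, a type I receptor of BMPs and activins, rose from 18.8 to 34.0 TPM under M2. Of 5 tested signal-carrying SMAD genes, none rose and 1 fell under M2, and 1 rose and 4 fell under M1. Smad3 fell from 6.30 ± 0.46 to 1.59 ± 0.11 TPM under M2 and to 0.837 ± 0.16 TPM under M1. Smad5 fell from 16.03 to 3.86 TPM under M1, and Smad4, the partner shared by all signal-carrying SMADs, rose from 33.6 to 63.2 TPM. With TMM factors the M1 counts were 2 higher and 2 lower, with Smad2 turned higher and Smad1 not called, and under M2 Smad1 was called higher.

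Of 11 other negative regulators, all tested, 4 rose and 6 fell under M2 and 4 rose and 5 fell under M1 in control cells (5 and 5, and 6 and 4, with TMM factors). Ski, the relative of Skil, rose from 26.5 ± 1.3 to 102 ± 2.7 TPM under M2, as Skil also did. Smurf1, a ubiquitin ligase for SMADs and receptors, rose from 6.38 to 16.2 TPM under M2. Under M1 Nedd4l, another ubiquitin ligase of SMADs, rose from 0.450 to 11.5 TPM, and the SMAD corepressor gene Tgif1 from 49.7 to 146 TPM. Among 10 tested genes of 21 other SMAD targets, 8 rose and 1 fell under M2 and 7 rose and 1 fell under M1, with medians of 1.96 and 2.17 beside -0.05 and -0.38 over all tested genes. Tgfbi rose from 0.0567 to 10.5 TPM under M2. Myc rose from 0.460 ± 0.18 to 14.6 ± 0.92 TPM under M2 and to 58.6 ± 2.5 TPM under M1. Klf10 fell from 21.3 to 1.06 TPM under M1. Tgfbi and Myc were below 1 TPM without stimulation, so they could pass the filter only by being high under a stimulus. The counts and medians of the lists are therefore descriptions. The 3 E protein genes, whose products the ID proteins bind, split: Tcf4 rose under both stimuli, from 33.7 to 46.4 TPM under M2 and 57.6 TPM under M1, while Tcf3 fell from 50.6 to 44.3 and 13.4 TPM and Tcf12 from 69.4 to 60.8 and 30.6 TPM.

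**Figure D5:**
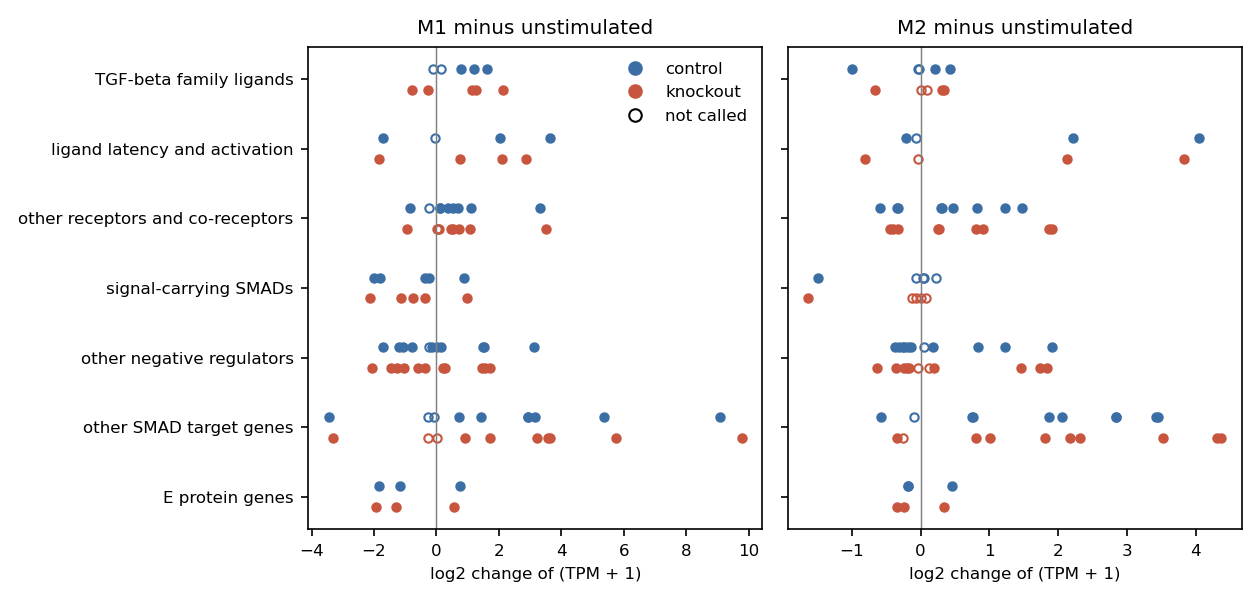
Log2 change of (TPM + 1) (x axis) of the tested genes of 7 pathway lists (rows), M1 minus unstimulated on the left and M2 minus unstimulated on the right, each panel with its own scale. Points are genes in control (blue) and knockout (red) cells, and open points were not called. The signal-carrying SMADs had no called rise under M2 as deposited (with TMM factors Smad1 was higher in control cells), while 8 of 10 other SMAD target genes rose in each genotype.

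Knockout cells had the same counts as control cells under M2 for the other SMAD targets (8 rose, 1 fell of 10), the other receptors (6 rose, 3 fell of 9) and the signal-carrying SMADs (1 fell of 5). With TMM factors the receptor counts were 6 and 2 in control against 6 and 3 in knockout cells, and the SMAD counts 1 and 1 against 0 and 1. Of the other negative regulators 4 rose and 5 fell in knockout cells, against 4 and 6 in control cells (5 and 3 against 5 and 5 with TMM factors). These knockout counts stand beside 29.6% of all tested genes called higher and 43.2% lower under M2 in knockout cells. Single genes of the pathway lists differed between the genotypes under M2. Tgfbi stood at 20.5 ± 1.9 TPM in knockout and 10.5 ± 0.22 TPM in control M2 cells (log2 difference of 0.90, limma adjusted p = 6.21e-08). Cdkn1a, the gene of the cell cycle inhibitor p21, stood lower, at 276 ± 1.3 against 375 ± 20 TPM (-0.44, limma adjusted p = 2.82e-07). Acvrl1 was higher, 29.0 ± 2.1 against 18.9 ± 0.85 TPM (0.59, limma adjusted p = 6.24e-08), opposite to Tgfbr1. Ldlrad4, whose product keeps SMAD2 and SMAD3 from the receptor as PMEPA1 does, was at 6.98 ± 0.58 against 1.24 ± 0.32 TPM (1.84, limma adjusted p = 3.03e-10). Of the 10 tested other SMAD targets 3 were higher and 2 lower in knockout M2 cells, beside 12.7% and 18.3% of all tested genes.

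Under M1 Vegfa was higher in knockout cells, 612 ± 5.8 against 348 ± 9.0 TPM (log2 difference of 0.81, limma adjusted p = 1.35e-11). Nedd4l was lower, 3.33 ± 0.12 against 11.5 ± 0.42 TPM (-1.53, limma adjusted p = 1.76e-11), as were Ski, 8.80 against 15.1 TPM, and Furin, 190.0 against 289.5 TPM. Without stimulation Smad4 was at 38.1 against 33.6 TPM (0.18, limma adjusted p = 0.00880), and it was also higher in knockout cells under M1 and M2. Tgif1 was at 41.2 against 49.7 TPM (-0.26, limma adjusted p = 0.00264). The ligand gene Tgfb1 was lower in knockout cells under M1, at 88.6 ± 2.6 against 111 ± 2.2 TPM (-0.32, limma adjusted p = 0.00300). Under M2 it was higher, at 138 ± 23 against 115 ± 4.5 TPM (0.25, limma adjusted p = 0.0247), with overlapping libraries. It was not called without stimulation (0.12, limma adjusted p = 0.352).

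The genes most like each of the 9 were found by the root mean square distance between group-mean log2(TPM + 1) profiles over the 6 groups, each centred on its mean. Pmepa1 was the nearest gene to Id1, at 0.590 log2 units, followed by A4galt at 0.677. Nearest to Pmepa1 was Ciita, the master regulator gene of MHC class II, at 0.412, and nearest to Skil was Eng, the TGF-β co-receptor endoglin, at 0.105. For Smad6 it was Htra3, a secreted protease gene, at 0.0716, and for Smad7 Bhlhe40, itself on the list of other SMAD targets, at 0.0971. Id2 lay nearest to Tnfrsf23 at 0.101, and Id3 to Nfkb1, the gene of an NF-κB subunit, at 0.112. Tgfbr1 was nearest to Gpr155 at 0.187 and Tgfbr2 to Cbx7, a Polycomb gene, at 0.117. Eng and Htra3 were low, with group means of 0.14 to 3.61 TPM and 0.0933 to 4.17 TPM, where the log2(TPM + 1) scale compresses changes. A small distance to them is therefore not a like fold change. In control cells the M2 mean was 8.13 times the unstimulated mean for Eng and 3.62 times for Skil. Smad7 was itself low, so its small distance to Bhlhe40 is likewise not a like fold change. In control cells mean Smad7 went from 0.457 TPM unstimulated to 5.03 TPM under M2, and mean Bhlhe40 from 46.3 to 171 TPM. Ciita and A4galt had means below 1 TPM in every group outside M2. Under M2 their means were higher in knockout than in control cells, 44.2 against 28.3 TPM and 37.3 against 23.0 TPM. The M2 means of Pmepa1 and Id1 were lower in knockout cells, 57.1 against 67.0 and 133 against 161 TPM, differences that were not called. All distances describe the 6 means of the same libraries, and no test was made of them.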

How the data were processed

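The authors deposited 1 table of TPM values per gene symbol, with 2 decimals and column totals of 999999 to 1000001. Reads were trimmed with Trim Galore and the build is mm10, per the submitters' processing notes; for the aligner, quantifier, annotation and strand setting, nothing is given in the sources used here, so how reads shared by related genes were assigned is unknown. No annotated gene overlapped any of the 9 genes. Sample titles gave the groups and replicate numbers.

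From these values, limma 3.58.1 (R 4.3.3, trend and robust moderation) was fitted to log2(TPM + 1) with 1 mean per group over all 18 libraries, so groups outside a comparison enter its error. In 11 comparisons, 11548 genes that reached 1 TPM in 3 or more libraries were tested, two-sided, with Benjamini-Hochberg adjustment and a threshold of 0.05. The code was tested on simulated data. Because TPM keeps no depth, precision is known from replicates only.

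The 9 genes, the pathway lists and the tests were chosen with earlier results of these data known. All 9 genes are named. From each list up to 3 called genes with the largest change and at least 5 TPM in the higher group were eligible in a comparison, and up to 3 nearest genes for likeness. Smad1 and Smad2 were named after their values were seen, for their change with scaling. Nos2 was named outside the lists and this rule. Promoter windows came from RefSeq, and the motifs were chosen with the windows at hand. Alternatives were TMM factors computed on TPM (trims of 30% and 5%), leaving out the filter or setting it at 5 TPM, leaving out the variance trend, a pseudocount of 0.1 TPM, a replicate block, a fit restricted to the compared groups, and leaving out single libraries. Plots used Python 3.11.15, pandas 2.3.3 and matplotlib 3.10.9.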

Additional observations from a re-analysis of the deposited data

Results flagged for a closer look

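Response differences between the genotypes passed the test for 4 gene and stimulus pairs, as knockout minus control log2 change of (TPM + 1) with its SE. In the M2 response Tgfbr1 differed by -0.81 ± 0.077 (limma adjusted p = 5.10e-07) and Id1 by -0.70 ± 0.15 (limma adjusted p = 0.00333). In the M1 response Pmepa1 differed by -0.35 ± 0.13 (limma adjusted p = 0.0344) and Skil by 0.21 ± 0.079 (limma adjusted p = 0.0477). The M2 differences held in every alternative that was run, and the M1 differences did not.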

How the results depend on the processing

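Of 1395 alternative fits of the 99 results for single genes, 1340 kept direction and side of the threshold, 33 lost a call (7 results), 17 gained one (12 results) and 5 turned direction, all 5 with TMM factors. With these the control M1 changes were 0.38 for Skil (reported -0.15) and 0.44 for Tgfbr2 (reported -0.11). The knockout M1 change of Tgfbr2 was 0.56 (reported -0.04). For Id3, M2 against M1 was -0.10 in control cells, not called, and -0.21 in knockout cells (reported 0.38 and 0.31). The number of the 9 genes called in the knockout effect under M2 was 2, and 4 with only the groups compared. The number called for the difference in M1 response was 2, and 1 each with no variance trend, with no filter, with the replicate block and with only the groups compared. The cause of these moves was not tested. Leaving out 1 library gave 2 to 4 genes for the knockout effect under M1 (reported 4), 2 to 4 under M2, 0 to 2 for the difference in M1 response and 2 to 3 for that in M2 response, 7 to 9 for the M1 response in control cells, and 8 to 9 for the M2 response and M2 against M1 in knockout cells; it left the other 4 counts as reported.

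Replicate numbers are shared in the titles but nothing says that they pair libraries. Over 45 pairs with the same number, deviations from group means correlated at -0.16 to 0.15 (median 0.0182), 7 of them over 0.1. Over 90 pairs with different numbers they correlated at -0.21 to 0.18 (median -0.0109), 6 of them over 0.1. Of 18 libraries, 11 were closest to their own number. The replicate block took away the call of Skil for the difference in M1 response (limma adjusted p = 0.0604) and left the other 10 counts as they were. Depth is unknown, and Smad6, Smad7 and, outside M2, Pmepa1 and Id1 were at levels of a few TPM or less, where the scale of log2(TPM + 1) compresses changes.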
